A study of Mus musculus with 9 samples.

Results

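The muscle contractile and myogenic genes are 44 genes that encode the filaments, Z disc, calcium store and energy enzymes of striated muscle, together with the 4 transcription factors that start the skeletal muscle programme. They were taken by name, and each was measured: 73 probe sets on the array carry the symbol of a single member, and the 44 genes are 44 of 18193 genes in all. Of these, 21 were classed as skeletal (used mainly in skeletal muscle), 5 as cardiac (used mainly in heart) and 18 as shared between the heart and some skeletal fibres. The RNA came from mouse embryos at embryonic day 16.5 that were frozen fresh, with joint tissue cut out by laser capture from the temporomandibular joint, the hinge between the lower jaw and the skull. The 3 groups were the condyle (the rounded end of the jaw bone), the fossa (the skull socket in which it turns) and whole body of the same age, with 3 arrays each, described as biological triplicates. The labels give no genotype or strain, no group was given an agent, and the number of embryos behind each array is not stated.

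In striated muscle, myosin thick filaments slide along actin thin filaments. Troponin and tropomyosin on the thin filament keep myosin off actin until calcium, released from the sarcoplasmic reticulum, binds troponin C. Most of these proteins exist as isoforms from separate genes, and an embryo uses embryonic, perinatal, slow and cardiac isoforms in different muscles. The heart and the slow skeletal fibres share several of them, among them the myosin heavy chain of Myh7 and the light chains of Myl2 and Myl3.

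Values are log2 of the deposited array intensities, so that a difference of 1 is a 2-fold change. A value counted as above background on an array when it was higher than the brightest of 27 control probe sets for bacterial genes on that array, a limit between 2.87 and 3.52. By its brightest probe set, 22 members were above the limit on all 9 arrays, 40 on at least 1 array, and 4 on none (Mybpc3, Des, Ckm and Myod1). For these 4, whole body was at background too, and the values cannot tell an absent transcript from a probe set that does not detect it. For Ckm, muscle creatine kinase, a dimmer probe set passed the limit on 2 of the arrays, condyle array 3 at 3.54 and fossa array 2 at 3.21. The limit was highest on fossa array 1, where 30.3% of all probe sets lay above it, against 37.4% to 46.9% on the other arrays. The joint labels were set against cartilage markers, and 10 of 12 cartilage genes were higher than in whole body in the condyle and 10 in the fossa. Liver genes, which the joint should lack, were lower for 7 of 8 measured in both joint tissues, although their summed log2 level reached 15.2 on condyle array 3 and 15.1 on fossa array 3, against 16.1 to 16.3 in whole body.

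In the condyle 10 of the 44 members fell and 0 rose, and in the fossa 14 fell and 0 rose (limma's moderated test over the 9 arrays, Benjamini-Hochberg adjusted p under 0.05 over all 18193 genes). At an unadjusted p under 0.05, 22 members were lower in the condyle and 21 in the fossa, and 0 were higher. The share of all genes at that threshold is not given here, so the unadjusted counts have no general rate beside them. The largest differences were those of myosin genes used by the heart and slow fibres. The condyle count is 22.7% of the members, where 3.84% of all genes were called lower, 9.34% higher and 13.2% in either direction. The fossa count is 31.8% of the members, where 15.6% of all genes were called lower, 3.99% higher and 19.6% in either direction. All 10 genes called in the condyle were also called in the fossa: Myh6, Myh7, Myl2, Myl3, Myl4, Mylpf, Tnnc1, Tnnt2, Myoz2 and Pln. Both comparisons use the same 3 whole body arrays, so the shared calls are not independent of each other. In these tissue samples, fewer muscle cells and less of a transcript per muscle cell cannot be told apart.

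The classes differed in how far they lay below whole body, and also in their level there. On the whole body arrays the class medians were 4.78 to 5.39 for skeletal, 3.85 to 5.61 for cardiac and 7.10 to 7.44 for shared members. The background limits of those arrays were 3.09 to 3.36, so dim members had less room to fall. The part of the starting level in the class medians was not tested. Of all genes, 3.84% were called lower in the condyle and 15.6% in the fossa. The median log2 difference of the 21 skeletal members was -0.94 in the condyle and -0.69 in the fossa. Of them 1 and 2 fell, 4.76% and 9.52%, near the condyle share of all genes and below the fossa share. The 5 cardiac members had medians of -2.10 and -2.10, with 2 and 3 that fell (40% and 60%). Of these 5 genes, 3 were at background on every condyle array and 2 on every fossa array. The 18 shared members had medians of -2.25 and -2.04, with 7 and 9 that fell (38.9% and 50%). With the mean of each gene's probe sets in place of the brightest, the condyle medians were -0.59 for skeletal and -1.42 for shared members. The median over all genes was -0.03 in the condyle and -0.11 in the fossa. Whether the array values overlapped was counted as well. All 3 condyle arrays lay below all 3 whole body arrays for 31 members, 70.5% of them, and above for 0, where 33.4% of all genes lay below and 19.8% above. All 3 fossa arrays lay below whole body for 28 members, 63.6%, and above for 0, where 31.1% of all genes lay below and 11.1% above. No test compared the classes with each other as lists. The classes were set with earlier results of these data known, so their contrast is a description and not independent evidence.

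The balance of higher and lower calls over all genes moved with the scaling. Centring each array on its median moved the median of all genes by 0.12 in the condyle comparison and 0.14 in the fossa comparison, and quantile normalization moved it by 0.03 and 0.12. Of all genes called in the condyle comparison, 29.1% were lower, against 49.6% after quantile normalization and 21.2% after centring. In the fossa comparison that share was 79.6%, against 52.6% and 55.3%. Under either scaling 0 members rose against whole body, and members with a difference below 0 numbered 38 in the condyle (37 after quantile normalization, 35 after centring) and 42 in the fossa (38 and 38).

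**Figure D1:**
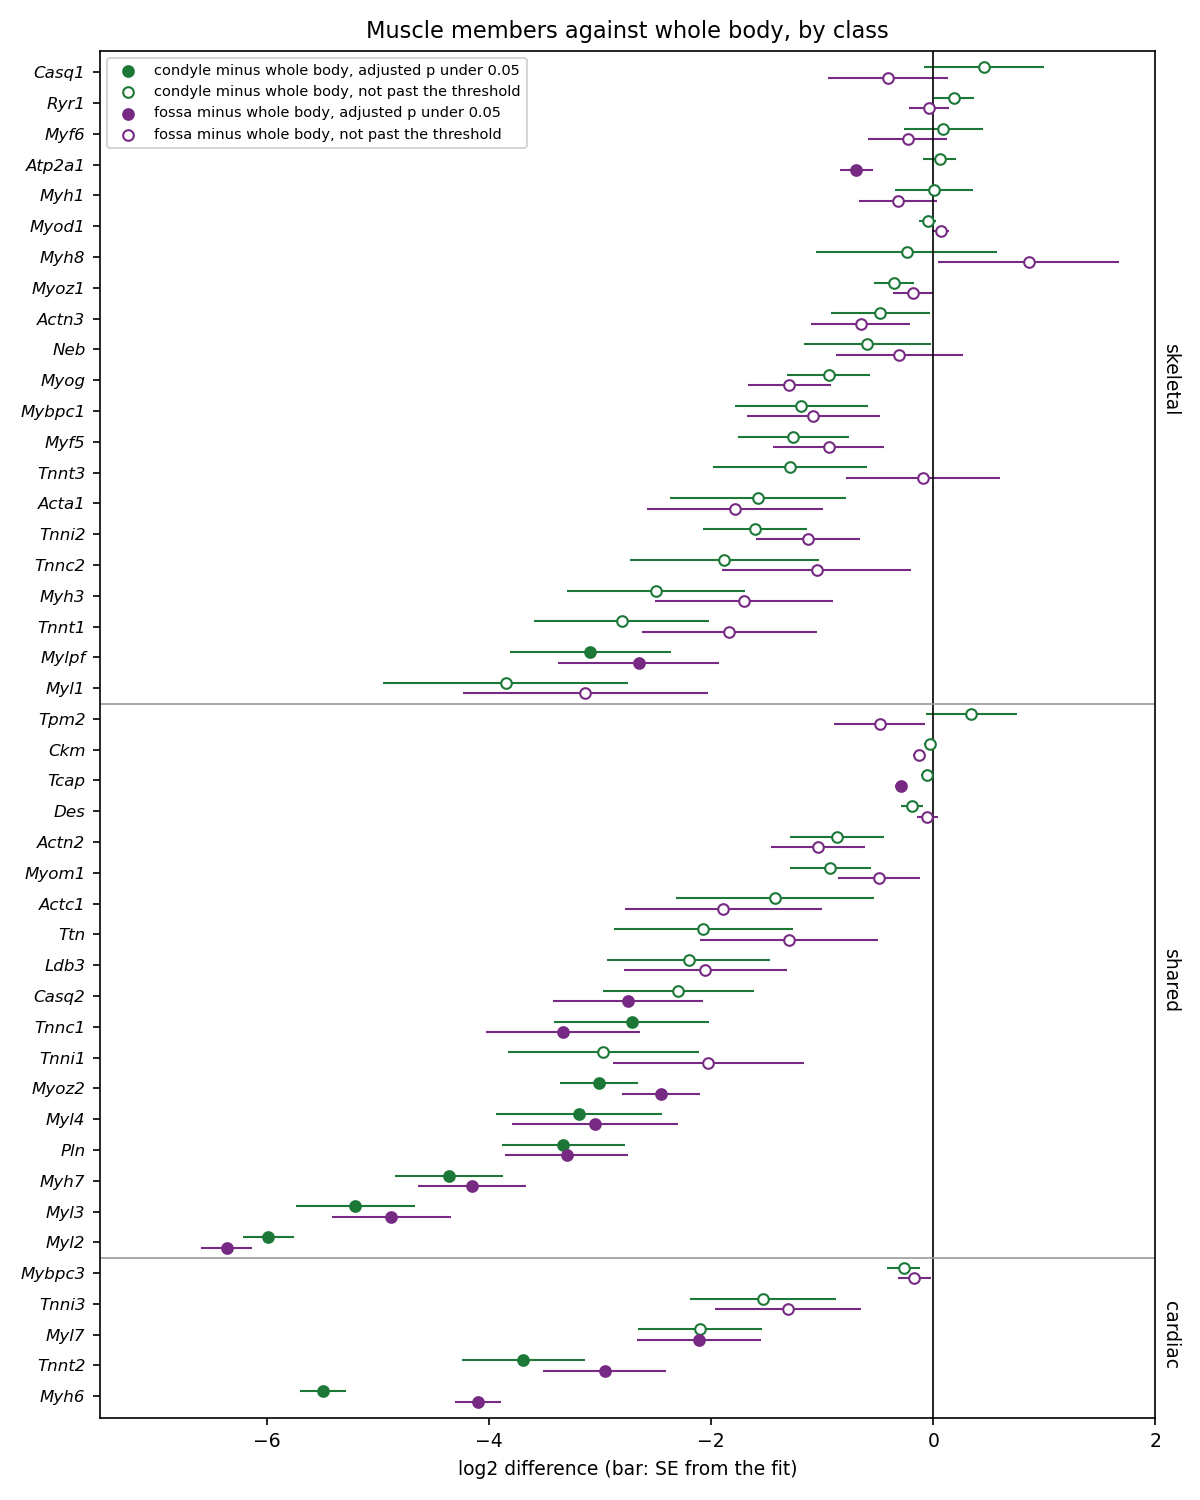
Log2 difference of each member from whole body, condyle in green and fossa in purple, with bars of 1 standard error from the fit over 9 arrays; filled points passed an adjusted p of 0.05. The cardiac and shared members reach from 0.34 to -6.36, and the skeletal members lie between -3.85 and 0.86, with filled points for Mylpf in both tissues and Atp2a1 in the fossa.

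The plot of differences from whole body orders the members by class and by size. Its filled points sit mainly among the shared and cardiac genes. Long and short bars occur in all 3 classes, and the spread between arrays of one joint tissue is described after the single genes.

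The promoters of 4 members are shown because they include the calsequestrin pair, whose members shifted unequally against whole body, a perinatal myosin gene that did not pass the test, and a light chain gene that fell by a large margin. RefSeq start sites were matched for 36 of the 44 members, which gave 41 windows of 250 bases before a start (assembly GRCm38.p6). Each line below is the coding strand from 5′ to 3′ and ends just before the annotated start. The positions are chr1:172219896-172220145 on the minus strand for Casq1, chr3:102086165-102086414 on the plus strand for Casq2, chr11:67276874-67277123 on the plus strand for Myh8 and chr9:110763428-110763677 on the plus strand for Myl3. Capitals mark E-boxes (CANNTG, the core bound by myogenic factors and other helix-loop-helix proteins), the MEF2 motif and the CArG box (the motif of serum response factor).
Casq1: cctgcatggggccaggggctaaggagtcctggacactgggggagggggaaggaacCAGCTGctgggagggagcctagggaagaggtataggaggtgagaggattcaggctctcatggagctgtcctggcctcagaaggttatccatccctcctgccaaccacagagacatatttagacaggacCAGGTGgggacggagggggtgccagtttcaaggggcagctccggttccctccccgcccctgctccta
Casq2: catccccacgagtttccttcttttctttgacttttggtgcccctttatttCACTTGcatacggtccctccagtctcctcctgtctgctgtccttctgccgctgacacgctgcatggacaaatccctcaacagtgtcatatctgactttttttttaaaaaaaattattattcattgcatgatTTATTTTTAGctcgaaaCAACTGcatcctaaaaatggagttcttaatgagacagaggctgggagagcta
Myh8: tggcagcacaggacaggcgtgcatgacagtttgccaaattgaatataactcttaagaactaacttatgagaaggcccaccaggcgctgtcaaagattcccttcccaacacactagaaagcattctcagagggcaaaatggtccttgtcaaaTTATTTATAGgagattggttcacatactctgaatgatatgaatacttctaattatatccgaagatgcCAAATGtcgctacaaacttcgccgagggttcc
Myl3: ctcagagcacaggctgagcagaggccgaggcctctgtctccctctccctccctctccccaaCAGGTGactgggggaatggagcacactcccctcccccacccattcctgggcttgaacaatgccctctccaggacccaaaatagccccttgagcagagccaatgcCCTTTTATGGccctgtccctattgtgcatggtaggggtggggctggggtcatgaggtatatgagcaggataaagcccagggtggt

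In these lines Casq1 has 2 E-boxes, the first of them CAGCTG, and neither of the other motifs. Casq2 has 2 E-boxes and 1 MEF2 motif that starts 69 bases before the start site. Myh8 has 1 E-box and 1 MEF2 motif, 99 bases before the start, and a TATAAA match on the other strand lies inside that MEF2 motif. Myl3 has 1 E-box and 1 CArG box, 85 bases before the start. No E-box in the 4 windows overlaps a MEF2 motif or a CArG box.

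Over all member windows, E-boxes were present in 82.9%, against 66.2% of 32851 windows of the same length from 27025 genes. The form CAGCTG, which is also counted among the E-boxes, was present in 36.6% of member windows and 13.0% of all windows. The MEF2 motif was present in 14.6% against 2.92%, and the CArG box in 17.1% against 1.47%. TATAAA, searched on both strands, was present in 19.5% of member windows and 12.4% of all windows, and in 42.9% of the 14 windows of skeletal members. The patterns of the E-box, its CAGCTG form, the MEF2 motif and the CArG box are their own reverse complements, so that 1 search covers both strands. These are matches of letters in a short window, given as a description.

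The thick filament group has 13 members, and it held 6 of the calls in the condyle and 7 in the fossa. Myh6, the alpha heavy chain of cardiac myosin (chr14:54941921-54968017), read 2.59, 2.39 and 2.39 on condyle arrays 1, 2 and 3, 4.15, 3.91 and 3.52 on the fossa arrays, and 8.13, 7.58 and 8.14 on the whole body arrays. The 3 groups did not overlap: whole body was highest, the fossa lay just above its background limits, and the condyle lay below them on all 3 arrays. Myh6 was at least 33.3-fold lower in the condyle than in whole body (adjusted p = 2.2e-05), a bound because the condyle gives no value above background, and it fell by 4.09 ± 0.21 (SE) in the fossa, 17.1-fold (adjusted p = 5.5e-05). A second, dimmer Myh6 probe set passed the limit on 1 array, whole body array 1.

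Its neighbour Myh7, the slow and beta cardiac heavy chain (chr14:54970684-54994626), stayed well above background in the joint. It read 6.43, 5.28 and 6.77 in the condyle, 6.22, 6.93 and 5.96 in the fossa, and 10.63, 9.86 and 11.08 in whole body. The joint tissues overlapped each other and lay more than 2 log2 units below every whole body array. Myh7 fell by 4.36 ± 0.49 in the condyle, 20.5-fold (adjusted p = 0.0026), and by 4.15 ± 0.49 in the fossa, 17.8-fold (adjusted p = 0.0018). A probe set that matches both Myh6 and Myh7 read 3.03 to 4.48 on the joint arrays and 6.57 to 7.43 in whole body, and was left out of both genes' values.

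Myl2, the regulatory light chain of slow and ventricular myosin, had the largest difference of all members in both joint tissues. It read 3.15, 2.85 and 3.31 in the condyle, 2.56, 3.11 and 2.51 in the fossa, and 9.07, 8.77 and 9.42 in whole body. It was close to background on every joint array, above the limit on 2 condyle arrays and 1 fossa array, and far above it in whole body. Myl2 was at least 62.1-fold lower in the condyle (adjusted p = 2.2e-05) and at least 58.8-fold lower in the fossa (adjusted p = 1.6e-05).

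Myl3, the essential light chain of the same myosin, read 3.28, 2.93 and 4.92 in the condyle, 3.32, 4.28 and 4.5 in the fossa, and 8.91 on each of the whole body arrays. Condyle array 3 and fossa arrays 2 and 3 stood above the other joint arrays, and none came near whole body. The gene was above its limit on 2 arrays of each joint tissue, so its folds are bounds: at least 36.8-fold lower in the condyle (adjusted p = 0.0019) and at least 28.1-fold lower in the fossa (adjusted p = 0.0015). Its 3 probe sets all pointed the same way but differed in size, with differences of -5.20, -4.25 and -1.15 in the condyle.

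Myl4, the embryonic and atrial essential light chain, was present on all arrays. It read 6.52, 4.89 and 7.11 in the condyle, 5.18, 7.68 and 6.10 in the fossa, and 9.66, 9.26 and 9.17 in whole body. The joint arrays spread over more than 2 log2 units in each tissue and lay below whole body. Myl4 fell by 3.19 ± 0.75 in the condyle (adjusted p = 0.034) and by 3.04 ± 0.75 in the fossa (adjusted p = 0.030). The condyle call was lost without condyle array 1 or 2, fossa array 3 or any 1 of the whole body arrays, with adjusted p from 0.058 to 0.096. The fossa call was lost without fossa array 1 or 3 or any 1 of the whole body arrays, with adjusted p from 0.066 to 0.089. A common floor, with every value under the mean of the 9 background limits raised to it, ended both (adjusted p 0.054 and 0.056), and quantile normalization ended the fossa call (adjusted p = 0.060).

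Mylpf, the regulatory light chain of fast skeletal fibres, was the only skeletal member that fell in both tissues. It read 7.58, 5.61 and 8.06 in the condyle, 6.50, 8.54 and 7.51 in the fossa, and 10.42, 9.97 and 10.11 in whole body. Condyle array 2 and fossa array 1 were the lowest of their groups. Mylpf fell by 3.09 ± 0.72 in the condyle, 8.49-fold (adjusted p = 0.034), and by 2.65 ± 0.72 in the fossa, 6.29-fold (adjusted p = 0.043). Leaving out condyle array 1 or 2, fossa array 3 or any 1 whole body array ended the condyle call (adjusted p 0.057 to 0.095). Leaving out condyle array 1, fossa array 1 or 3 or any 1 whole body array ended the fossa call (adjusted p 0.063 to 0.108). A common floor ended both (adjusted p 0.054 and 0.077), and quantile normalization and centring ended the fossa call (adjusted p 0.102 and 0.053).

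Myl7, the atrial regulatory light chain, was dim. It read 2.16, 3.22 and 2.83 in the condyle, 3.58, 2.30 and 2.30 in the fossa, and 5.61, 5.05 and 3.85 in whole body, and 1 array of each joint tissue was above its limit. No joint array reached the lowest whole body array. The gene was at least 3.20-fold lower in the fossa (adjusted p = 0.039). The difference was of the same size in the condyle, -2.10 ± 0.56, and missed the threshold (adjusted p = 0.051). The fossa call was lost without any 1 condyle array, fossa array 2 or 3, or whole body array 1 or 2 (adjusted p 0.0508 to 0.117), and also under quantile normalization, with a common floor and with only fossa and whole body in the fit (adjusted p 0.066 to 0.080). The condyle difference passed without fossa array 1 (adjusted p = 0.040) or whole body array 3 (adjusted p = 0.0295).

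Myl1, the essential light chain of fast fibres, had the widest spread between condyle arrays of any member. It read 6.87, 3.30 and 7.41 in the condyle, 5.36, 7.81 and 6.56 in the fossa, and 9.67, 9.82 and 9.64 in whole body. Condyle array 2 was near background while the other condyle arrays were not, and all joint arrays lay below whole body. The differences from whole body were -3.85 ± 1.10 in the condyle (adjusted p = 0.064) and -3.13 ± 1.10 in the fossa (adjusted p = 0.092). Without condyle array 2, whose removal narrows the common spread, the fossa difference of Myl1 passed with an adjusted p of 0.017.

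The embryonic and perinatal heavy chains did not pass the test. Myh3, the embryonic heavy chain, was bright on every array: 10.44, 8.48 and 11.45 in the condyle, 9.91, 12.00 and 10.83 in the fossa, and 12.44, 12.61 and 12.79 in whole body. All joint arrays lay below whole body, by -2.49 ± 0.80 in the condyle and -1.70 ± 0.80 in the fossa (adjusted p 0.089 and 0.188). Myh8, the perinatal heavy chain, did not separate the groups. It read 8.03, 6.61 and 9.50 in the condyle, 7.94, 10.32 and 9.17 in the fossa, and 8.28, 8.11 and 8.47 in whole body. Condyle array 3 and fossa arrays 2 and 3 were above all whole body arrays, and the 3 other joint arrays were below them.

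The remaining thick filament members were dim. Myh1, a heavy chain of adult fast fibres, read 2.91 to 4.39 over the 9 arrays, with the highest value on condyle array 1. Mybpc1, the slow form of myosin-binding protein C, read 5.77 on condyle array 3, above every whole body array (5.10 to 5.74), and 3.47 and 3.46 on the other condyle arrays. Its differences were -1.19 ± 0.60 and -1.08 ± 0.60 (adjusted p 0.243 and 0.257), and without condyle array 3 both passed, with adjusted p of 0.00445 and 0.00977. Mybpc3, the cardiac form, was at background on all 9 arrays.

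**Figure D2:**
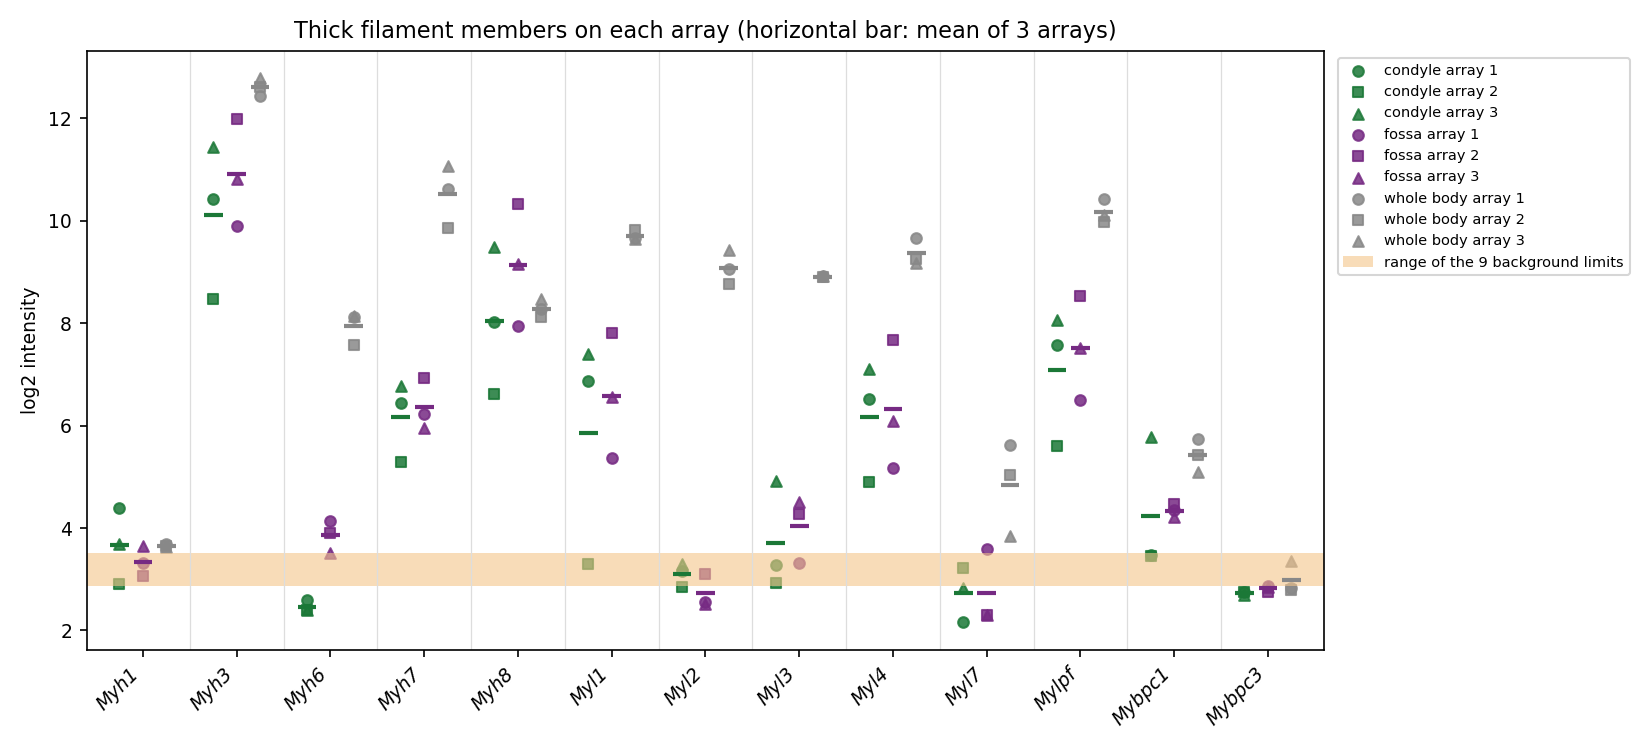
Log2 intensity of the 13 thick filament members on each of the 9 arrays, with the condyle in green, the fossa in purple, whole body in grey, a horizontal bar for the mean of 3 arrays and a shaded band for the range of the background limits. Whole body points stand apart from the joint for Myh6, Myh7, Myl2 and Myl3, and the joint points of Myh8 straddle whole body at 8.11 to 8.47.

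In the plot of thick filament values, Myh6 and Myl2 form tight groups far below whole body. The joint points of Myh3, Myh8, Myl1, Myl4 and Mylpf are stretched out, with the square of condyle array 2 mostly at the bottom and the square of fossa array 2 mostly at the top.

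Among the 12 thin filament members, Tnnc1 and Tnnt2 fell in both joint tissues, and the other 10 did not pass the test in either. Tnnt2, cardiac troponin T, which is also made in early skeletal muscle, read 6.74, 5.15 and 6.87 in the condyle, 7.06, 7.71 and 6.18 in the fossa, and 10.04, 9.58 and 10.21 in whole body. The joint arrays were above background and below all whole body arrays. Tnnt2 fell by 3.69 ± 0.55 in the condyle, 12.9-fold (adjusted p = 0.0074), and by 2.96 ± 0.55 in the fossa, 7.77-fold (adjusted p = 0.011). A second bright probe set gave -3.73 and -3.07.

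Tnnc1, the calcium sensor of cardiac and slow fibres, read 5.50, 3.45 and 4.81 in the condyle, 3.24, 5.34 and 3.33 in the fossa, and 7.0, 7.35 and 7.55 in whole body. Condyle array 2 and fossa arrays 1 and 3 were near their background limits. Tnnc1 fell by 2.71 ± 0.70 in the condyle, 6.57-fold (adjusted p = 0.045), and was at least 9.44-fold lower in the fossa, where 2 of 3 arrays were above background (adjusted p = 0.017). The condyle call was lost without any 1 array other than fossa array 2, with adjusted p from 0.051 to 0.116, and also under centring (adjusted p = 0.054) and with a common floor (adjusted p = 0.070). The fossa call was lost without fossa array 3 (adjusted p = 0.059) or whole body array 2 (adjusted p = 0.0515) or 3 (adjusted p = 0.0503).

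Its fast counterpart Tnnc2 was bright and varied more. It read 9.26, 7.64 and 10.67 in the condyle, 8.68, 11.04 and 10.37 in the fossa, and 11.27, 11.22 and 10.74 in whole body. Fossa array 2 overlapped whole body, while all condyle arrays lay below it. The differences were -1.88 ± 0.85 and -1.05 ± 0.85 (adjusted p 0.202 and 0.436).

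Tnni1, the slow troponin I, was among the members with the widest spread in the condyle. It read 5.07, 2.56 and 5.89 there, 4.59, 6.47 and 5.30 in the fossa, and 7.60, 7.43 and 7.41 in whole body. Condyle array 2 was the one array of the 9 where it was at background. The differences were -2.97 ± 0.86 and -2.03 ± 0.86 (adjusted p 0.066 and 0.150). The condyle difference passed without condyle array 3 (adjusted p = 0.049), and the fossa difference passed without condyle array 2 (adjusted p = 0.037).

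The other troponins also had differences below 0 that missed the threshold, the smallest of them -0.09 ± 0.69 for Tnnt3 in the fossa. Tnnt1, slow troponin T, differed by -2.81 ± 0.79 and -1.84 ± 0.79 (adjusted p 0.060 and 0.153). The fossa difference of Tnnt1 passed without condyle array 2 (adjusted p = 0.038). Tnni2, fast troponin I, differed by -1.60 ± 0.47 and -1.13 ± 0.47 (adjusted p 0.067 and 0.141). Tnni3, cardiac troponin I, was at background on all 6 joint arrays and on whole body array 2, and read 5.46 and 3.79 on whole body arrays 1 and 3. Without whole body array 2 its differences passed (adjusted p 0.035 and 0.033).

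The actins did not separate the groups as sharply as the myosins. Acta1, skeletal alpha actin, read 7.37, 6.46 and 9.14 in the condyle, 6.10, 8.13 and 8.10 in the fossa, and 9.65, 9.0 and 9.04 in whole body. Actc1, cardiac alpha actin, which is also the main sarcomeric actin of early skeletal muscle, read 9.17, 6.50 and 9.48, then 6.56, 8.94 and 8.26, then 9.90, 9.79 and 9.74. Condyle array 3 came within the range of whole body for Acta1, and condyle array 2 and fossa array 1 were lowest for both genes. Differences lay between -1.89 and -1.43, with adjusted p from 0.166 to 0.324. Tpm2, beta tropomyosin, is also made outside striated muscle, and it read 9.27 to 11.34 over the joint arrays and 10.19 to 10.71 in whole body. On condyle arrays 1 and 2 it was above every whole body array. Neb, nebulin, the ruler of the thin filament, overlapped in all comparisons.

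**Figure D3:**
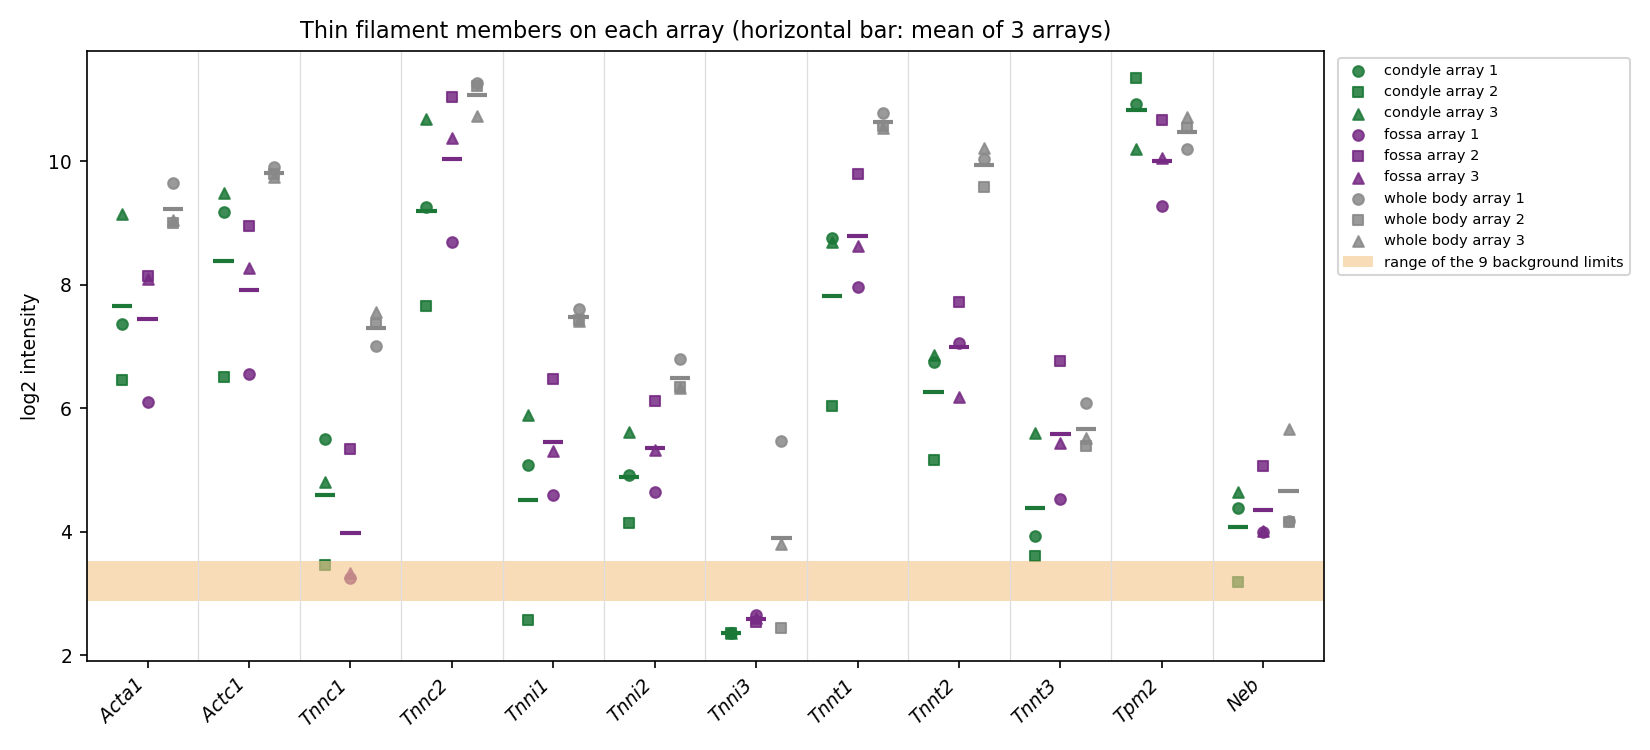
Log2 intensity of the 12 thin filament members on each of the 9 arrays, drawn as for the thick filament genes. Tnnc1 and Tnnt2 are the 2 members with all joint arrays below whole body and a call in both tissues, and the square of condyle array 2 is the lowest condyle point for most members.

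In the plot of thin filament values, the symbols of one array keep much the same place from gene to gene within a tissue. Tpm2 departs from this, with condyle array 2 at the top.

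Among the 9 genes of the Z disc, the M band and titin, only Myoz2 fell in both tissues. Myoz2, a calsarcin of heart and slow fibres that anchors calcineurin at the Z disc, read 4.72, 5.01 and 6.12 in the condyle, 6.09, 5.87 and 5.57 in the fossa, and 8.09, 8.37 and 8.42 in whole body. The groups of joint and whole body arrays lay well apart and the fossa arrays lay close together. Myoz2 fell by 3.01 ± 0.35 in the condyle, 8.04-fold (adjusted p = 0.0030), and by 2.45 ± 0.35 in the fossa, 5.46-fold (adjusted p = 0.0041).

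Tcap, telethonin, the cap of titin at the Z disc, was called lower in the fossa with a difference of -0.29 ± 0.05 (adjusted p = 0.0082), but its values lay at background. It read 2.97, 2.92 and 2.96 in the condyle, 2.73, 2.71 and 2.71 in the fossa, and 3.01, 3.03 and 2.97 in whole body, with only 2 condyle arrays over their limits. No fold is given for it. The fossa call was absent under quantile normalization, under centring, with a common floor and without the genes at background on all arrays.

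Ldb3, a PDZ and LIM protein of the Z disc, had one of the widest spreads in the fossa. It read 4.30, 2.85 and 4.88 in the condyle, 3.12, 5.56 and 3.79 in the fossa, and 5.84, 6.14 and 6.65 in whole body. Fossa array 2 stood above the other fossa arrays and all joint arrays lay below whole body. The differences were -2.20 ± 0.73 and -2.05 ± 0.73 (adjusted p 0.100 and 0.096), and without fossa array 2 the fossa difference was -2.76 (adjusted p = 0.033). The fossa difference also passed with the mean of the gene's 3 probe sets. When limma was run on every probe set, a second Ldb3 probe set differed by -0.44 and -1.38 (adjusted p 0.340 and 0.018). The third was at background on all arrays.

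Ttn, titin, differed by -2.07 ± 0.80 and -1.30 ± 0.80 (adjusted p 0.147 and 0.309), and its fossa arrays overlapped whole body. Actn2, the alpha-actinin of cardiac and skeletal Z discs, differed by -0.87 ± 0.42 and -1.04 ± 0.42 (adjusted p 0.231 and 0.137). Myom1, myomesin of the M band, was dim in the joint, and it passed in both tissues only without fossa array 2 (adjusted p 0.031 and 0.038). Actn3, the fast-fibre alpha-actinin, and Myoz1, the fast-fibre calsarcin, lay between 2.61 and 4.71 on every array. Des, desmin, the intermediate filament of muscle, was at background on all 9 arrays by both of its probe sets.

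Of the 6 genes of calcium handling and energy, Pln fell in both tissues. Pln, phospholamban, the inhibitor of the calcium pump in heart and slow fibres, read 2.60, 2.91 and 2.59 in the condyle, 2.69, 2.92 and 2.58 in the fossa, and 5.07, 5.58 and 7.44 in whole body. It was above its limit on 1 of the 6 joint arrays and on all whole body arrays. Pln was at least 8.78-fold lower in the condyle (adjusted p = 0.010) and at least 7.38-fold lower in the fossa (adjusted p = 0.0074). These folds rest on 1 of its 3 probe sets. A second passed the limit on 1 array, with differences of -0.83 and -0.82. The third was at background on all 9 arrays, with differences of -0.08 and -0.10.

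Casq2, the cardiac calsequestrin, which stores calcium in the sarcoplasmic reticulum and is also made in fetal skeletal muscle, passed in the fossa. It read 4.39, 3.67 and 5.96 in the condyle, 3.54, 5.36 and 3.75 in the fossa, and 7.31, 6.84 and 6.75 in whole body. All joint arrays were below whole body, with condyle array 3 and fossa array 2 the highest of their tissues. Casq2 fell by 2.75 ± 0.68 in the fossa, 6.72-fold (adjusted p = 0.031), and differed by -2.29 ± 0.68 in the condyle (adjusted p = 0.070). The fossa call was lost without condyle array 1, fossa array 1 or 3, or any 1 whole body array (adjusted p 0.051 to 0.096), and with a common floor (adjusted p = 0.057). The condyle difference passed without condyle array 3 (adjusted p = 0.034).

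Casq1, the skeletal calsequestrin whose promoter is printed beside that of Casq2, did not separate the condyle from whole body. It read 4.15, 4.14 and 6.19 in the condyle, 3.97, 3.95 and 3.96 in the fossa, and 4.78, 4.19 and 4.13 in whole body. Condyle array 3 stood above all others. The differences were 0.46 ± 0.54 and -0.41 ± 0.54 (adjusted p 0.571 and 0.644).

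Atp2a1, the calcium pump of fast fibres, was called lower in the fossa (-0.69 ± 0.15, adjusted p = 0.018) at values near background. It read 3.04, 2.91 and 3.43 in the condyle, 2.23, 2.45 and 2.43 in the fossa, and 3.19, 3.08 and 2.93 in whole body. It was above its limit on 2 condyle arrays, 0 fossa arrays and 1 whole body array, so no fold is given. The call was lost without fossa array 1 or whole body array 1 or 2 (adjusted p 0.051 to 0.054). With a common floor the difference was -0.04 and not called. Ryr1, the calcium release channel of skeletal muscle, passed its limit on condyle array 3 alone, at 3.15.

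None of the 4 myogenic transcription factors passed the test against whole body with limma. At an unadjusted p under 0.05, 2 were lower in the condyle and 1 in the fossa, with no share of all genes given at that threshold. Myog, myogenin, which drives differentiation, read 3.95, 3.32 and 3.85 in the condyle, 2.53, 4.07 and 3.45 in the fossa, and 4.69, 4.47 and 4.78 in whole body. All joint arrays lay below whole body, by -0.94 ± 0.37 (adjusted p = 0.155) and -1.29 ± 0.37 (adjusted p = 0.052). The condyle difference passed without fossa array 1 (adjusted p = 0.045) and the fossa difference without fossa array 2 (adjusted p = 0.020).

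Myf5, an early determination factor, read 3.28, 3.28 and 3.14 in the condyle, 3.67, 3.66 and 3.33 in the fossa, and 4.54, 5.60 and 3.34 in whole body. Whole body array 3 lay among the joint arrays, and without it both differences passed (adjusted p 0.019 and 0.024). Myf6, a factor of late differentiation, reached 3.80 on condyle array 3 and was at background on the other joint arrays. Myod1, the second determination factor, was at background everywhere by both probe sets.

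The condyle and the fossa were then compared directly. Here 3 members passed, 1 lower and 2 higher in the condyle, where 18.9% of all genes were called, 16.8% higher and 2.13% lower. Myh6 was at least 1.95-fold lower in the condyle than in the fossa (-1.40 ± 0.21, adjusted p = 0.0060). With 1 floor common to all arrays the difference was -0.79 and missed the threshold (adjusted p = 0.0589), and with the mean of its probe sets it was -0.74 and passed. Tcap and Atp2a1 were higher in the condyle, by 0.23 ± 0.05 (adjusted p = 0.021) and 0.75 ± 0.15 (adjusted p = 0.015), at values near background and with no fold. With the common floor their differences were 0.0 and 0.12 and neither was called. The Tcap call was lost without condyle array 1 or 3 or fossa array 2 or 3 (adjusted p 0.051 to 0.070). Under quantile normalization the median of all genes in this comparison moved by -0.22, and 41.9% of all calls were lower in the condyle, against 11.2% as deposited and 16.8% after centring. All condyle arrays lay above all fossa arrays for 4 members and below for 4, which is 9.09% each, where 33.9% of all genes lay above and 15.8% below. The median difference was -0.14 over the members and 0.21 over all genes.

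A test for any difference among the 3 groups (limma's moderated F test, adjusted p under 0.05) was passed by 14 members, where 28.1% of all genes passed. By class these were 2 skeletal, 3 cardiac and 9 shared members.

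The contrast between isoforms was then taken within each array, which removes any factor that scales all values of an array alike. For 10 pairs, each a skeletal isoform and its cardiac or shared counterpart, the log2 value of the second was subtracted from that of the first. This difference was higher in all 3 condyle arrays than in all 3 whole body arrays for 6 of the 10 pairs and lower for 0. In the fossa it was higher for 8 of the 10 and lower for 0, and between condyle and fossa all 10 pairs overlapped. How often other pairs of genes separate was not counted. Of all single genes, 33.4% lay below whole body and 19.8% above on all condyle arrays, and 31.1% and 11.1% on all fossa arrays. Both genes were above background on all arrays compared for 4 of the 6 separated pairs in the condyle and 5 of the 8 in the fossa. The others rest in part on arrays where Myl2, Myl3, Tnnc1 or Tnni1 was not above its limit. An exact two-sided permutation test of 3 arrays against 3 cannot go below p = 0.1, which each separated pair reached, and after Benjamini-Hochberg adjustment over the 30 tests the smallest value was 0.214. This test therefore cannot pass 0.05 with 3 arrays a group, and no other test was run on the pairs. The pairs share genes (Myh7 is used in 2) and both joint comparisons share the whole body arrays.

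The largest shift was that of Myh8 against Myh7. The difference Myh8 minus Myh7 was 1.88 ± 0.74 (SD, n = 3) in the condyle, 2.78 ± 0.92 in the fossa and -2.24 ± 0.45 in whole body. Against whole body, Myh8 differed by -0.24 and Myh7 by -4.36 in the condyle, a gap of 4.12. In the fossa Myh8 differed by 0.86, above 0, and Myh7 by -4.15, a gap of 5.01. For the regulatory light chains, Mylpf minus Myl2 was 3.98 ± 1.07, 4.79 ± 0.77 and 1.08 ± 0.35, but Myl2 was not above background on condyle array 2 or on fossa arrays 1 and 3, so the joint values are not exact differences. For the calsequestrins, Casq1 minus Casq2 was 0.15 ± 0.36, -0.26 ± 1.0 and -2.60 ± 0.07.

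Among the troponins, Tnnt3 minus Tnnt2 was -1.88 ± 0.82 in the condyle, -1.41 ± 0.98 in the fossa and -4.28 ± 0.38 in whole body. Tnni2 minus Tnni1 was 0.38 ± 1.04, -0.10 ± 0.23 and -0.99 ± 0.16. Tnnc2 minus Tnnc1 separated in the fossa, 6.06 ± 0.86 against 3.77 ± 0.55, and overlapped in the condyle, 4.61 ± 1.11. The actin pair, Acta1 minus Actc1, overlapped throughout, at -0.73 ± 0.94, -0.48 ± 0.32 and -0.58 ± 0.29, as did Actn3 minus Actn2. These values show unequal change of 2 probe sets and do not compare the amounts of the 2 transcripts.

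The arrays of one joint tissue differed from each other more in the muscle genes than over all genes. Over the members above background on at least 1 array of the tissue, the median range between the highest and lowest array was 1.72 in the condyle (37 members), 1.47 in the fossa (35 members) and 0.55 in whole body (38 members). The same medians over all genes were 0.57, 0.70 and 0.59. Some marker lists of other tissues had wider ranges. These were neuron and Schwann cell genes (3.27 in the condyle and 2.83 in the fossa), bone genes (1.995 and 2.23) and, in the fossa, epithelial genes (4.34), red cell genes (2.67) and cartilage genes (1.80). The other lists had narrower ranges. In the condyle these were tendon (1.70), red cell (1.47), liver (1.44), epithelial (1.30), cartilage (1.21) and endothelial genes (1.12). In the fossa they were tendon (1.22), liver (1.17) and endothelial genes (0.45). The widest condyle ranges belonged to Myl1, Tnni1 and Tnnc2, and the widest fossa ranges to Myl4, Ldb3 and Myl1.

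The order of the arrays was largely the same from gene to gene. Condyle array 2 was the lowest for 31 of 37 members (83.8%), where it was the lowest for 38.0% of all genes, and condyle array 3 was the highest for 28 (75.7%, against 37.1%). Fossa array 1 was the lowest for 21 of 35 members (60.0%, against 41.4%) and fossa array 2 the highest for 27 (77.1%, against 41.3%). Condyle array 2 was the lowest for 17 of 20 skeletal and 13 of 15 shared members. The members are not independent of each other on an array, so these counts describe 6 arrays and carry no p.

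**Figure D4:**
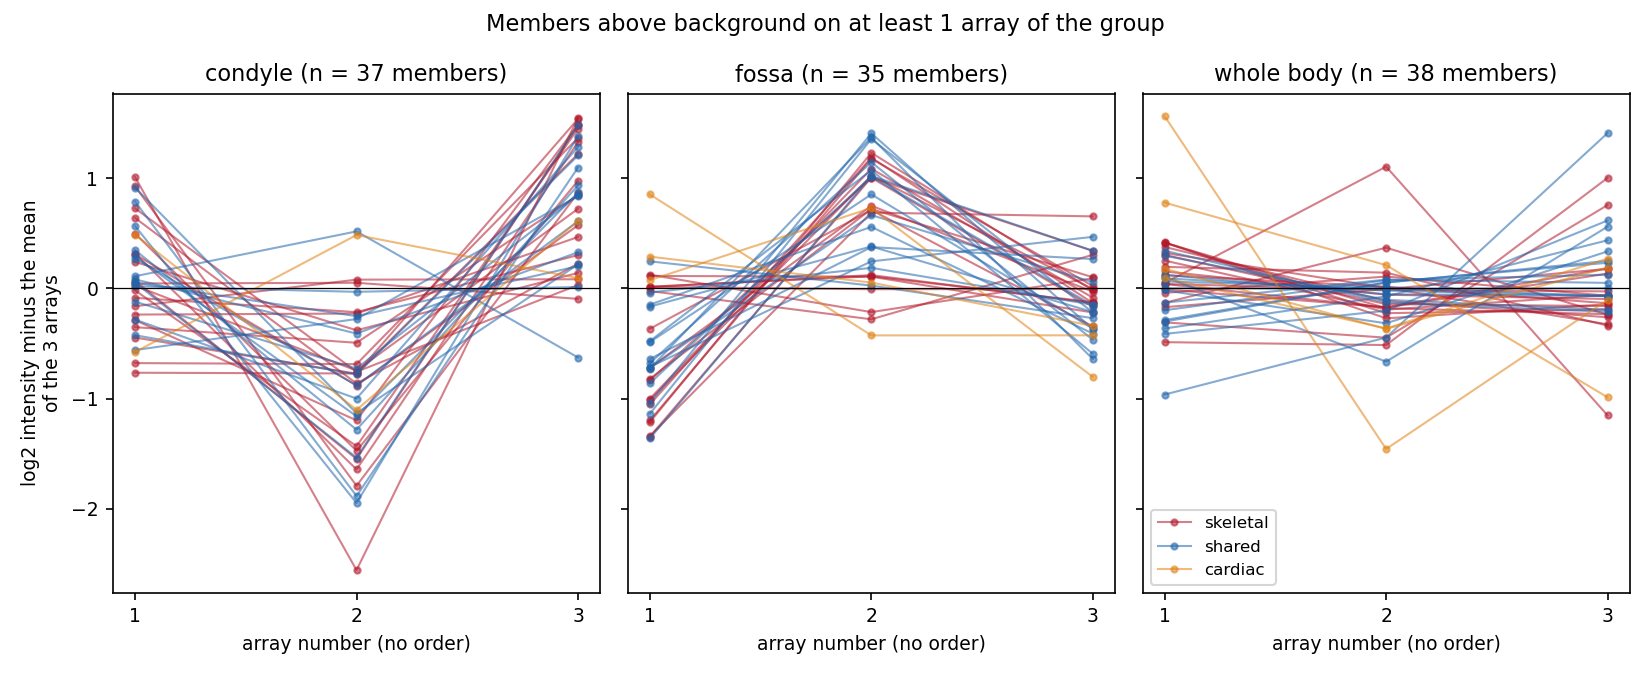
Log2 intensity of each member minus the mean of the 3 arrays of its tissue, 1 line per member above background on at least 1 array of the group (37 in the condyle, 35 in the fossa, 38 in whole body), with skeletal members in red, shared in blue and cardiac in orange; the array numbers have no order. Most lines dip at condyle array 2, rise at fossa array 2 and stay near 0 in whole body.

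In the plot of each array against its tissue mean, lines of the skeletal and shared classes run together. Few members depart from the common course, among them Tpm2, for which condyle array 2 was the highest.

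Some members were above all whole body arrays on single joint arrays and below them on others. How often a single joint array lay above all whole body arrays over all genes was not counted, so these counts have no general rate beside them. On condyle array 3 this held for 6 members above background: Myh8, Mybpc1, Ryr1, Casq1, Atp2a1 and Myf6, all of the skeletal class. Of these, Ryr1, Atp2a1 and Myf6 were dim there, at 3.15, 3.43 and 3.80 against a limit of 2.87. On condyle array 1 it held for Myh1 and Tpm2, and on condyle array 2 for Tpm2. On fossa array 2 it held for Myh8, Tnnt3 and Myom1, on fossa array 3 for Myh8, and on fossa array 1 for 0 members. No cardiac member was above all whole body arrays on any joint array.

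Other gene groups followed a part of this order. Of 8 neuron and Schwann cell markers measured, condyle array 2 was the lowest for 8, fossa array 1 for 7, and fossa array 2 was the highest for 8. Their median level was 6.72, 4.27 and 6.60 on condyle arrays 1, 2 and 3 and 4.46, 7.39 and 5.43 on the fossa arrays, and their summed log2 level ranged from 7.86 to 10.73 in the condyle, 7.65 to 11.09 in the fossa and 9.69 to 10.15 in whole body. Cartilage markers ran the other way in the condyle, where array 3 was the lowest for 11 of 12 and array 2 the highest for 9, and in the fossa array 2 was the highest for 10. Bone markers were lowest on condyle array 2 for 5 of 7, lowest on fossa array 1 for 7 and highest on fossa array 2 for 6. Epithelial markers were lowest on fossa array 2 for 9 of 9 and highest on condyle array 2 for 7. Their part in the result was not tested. Without both condyle array 2 and fossa array 1, a choice made after seeing these values, 12 members fell in the condyle and 15 in the fossa, and 2 passed between condyle and fossa.

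RNA quality controls differed between arrays too, and 1 of them differed between the joint and whole body. The 18S ribosomal probe set read 5.90 to 9.66 in the condyle, 7.30 to 9.75 in the fossa and 14.27 to 14.42 in whole body. By this control every joint array lay below every whole body array. An effect of RNA preparation that goes with it cannot be told apart from a tissue difference between joint and whole body. The 3′ minus 5′ difference of the Gapdh control was 5.33, 5.64 and 6.86 in the condyle, 3.69, 4.97 and 5.31 in the fossa, and 5.34 to 6.52 in whole body. The same difference for Actb was 6.70, 6.52 and 6.71 in the condyle, 4.79, 6.15 and 6.60 in the fossa, and 5.74 to 6.57 in whole body. Fossa array 1, with the lowest muscle values of the fossa most often, had the lowest 3′ minus 5′ difference by both controls. Condyle array 3 stood apart by Gapdh and not by Actb, and condyle array 2 was the lowest of the condyle by Actb and not by Gapdh. Their part in the result was not tested.

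Other muscle genes were read from the same fit. Of 42 further skeletal muscle genes 38 were measured, and 4 fell and 0 rose in each joint tissue against whole body. Those 4 are 10.5% of the list, above the 3.84% of all genes lower in the condyle and below the 15.6% lower in the fossa. At an unadjusted p under 0.05, 11 were lower and 0 higher in the condyle, and 12 and 3 in the fossa. No share of all genes is given at that threshold. Pgam2, the muscle phosphoglycerate mutase, read 3.62, 3.54 and 4.27 in the condyle and 5.66 to 6.15 in whole body, and fell by 2.04 ± 0.48 (adjusted p = 0.034). Klhl41 and Csrp3, regulators of sarcomere assembly, had larger differences of -3.04 ± 1.04 and -2.39 ± 0.75 in the condyle that did not pass (adjusted p 0.108 and 0.084). Trdn, triadin, which couples the release channel to calsequestrin, was at least 2.58-fold lower in the fossa (adjusted p = 0.048). The order of arrays recurred in this list: condyle array 2 was the lowest for 14 of 19 genes above background and fossa array 2 the highest for 15 of 19.

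The heart list, taken without the members, was mostly at background on these arrays. Of 15 genes measured, 10 were at background on every whole body array, and 1 fell in the condyle and 3 in the fossa, with 1 that rose in the fossa. The lower calls are 6.67% and 20.0% of the list, near the 3.84% and 15.6% of all genes. Nppa, atrial natriuretic peptide, read 3.34 to 4.11 in whole body and was at background on all 6 joint arrays. It was at least 1.78-fold lower in the condyle (adjusted p = 0.023) and at least 1.504-fold lower in the fossa (adjusted p = 0.016). Sln, sarcolipin, a pump inhibitor of atria and of fetal skeletal muscle, read 5.71, 3.56 and 7.17 in the condyle and 5.11, 7.54 and 6.82 in the fossa, with the same arrays low and high as the skeletal members. It read 7.38 to 8.41 in whole body, and its differences did not pass (adjusted p 0.175 and 0.392).

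Of 14 progenitor and lineage factors, 12 were measured. In the fossa 4 fell (Tcf21, Met, Pax7 and Eya1), in the condyle 1 fell and 1 rose, and 3 were higher in the condyle than in the fossa. These are 33.3% lower in the fossa, against 15.6% of all genes, and 25% higher in the condyle than in the fossa, against 16.8%. Six4, a homeobox factor upstream of the myogenic genes, read 5.87, 6.36 and 4.97 in the condyle and 3.41, 4.30 and 4.02 in the fossa, at least 3.45-fold higher in the condyle (adjusted p = 0.017). Pax7, the factor of muscle progenitors, was at background on all fossa arrays and on 1 condyle array. It read 3.02 to 4.29 in whole body, where it was above the limit on 2 arrays and at background on array 1. Of 10 smooth muscle genes 1 was lower in each joint tissue, Tagln, by at least 2.52-fold in the condyle (adjusted p = 0.0089) and at least 2.01-fold in the fossa (adjusted p = 0.025). That is 10% of the list, above the 3.84% of all genes lower in the condyle and below the 15.6% lower in the fossa. Mylk, the light chain kinase, was 5.34-fold higher in the condyle than in the fossa (adjusted p = 0.0096). It was the 1 gene of the list called higher there, 10%, against 16.8% of all genes.

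Relatives of the members with uses outside striated muscle were counted in the same way, among them Atp2a2, which heart and slow muscle use as well. Of 16 measured, 4 rose and 0 fell in the condyle, and 1 rose and 2 fell in the fossa. In the condyle 25% of the list rose, against 9.34% of all genes, and in the fossa 6.25% rose and 12.5% fell, against 3.99% and 15.6%. Atp2a2, the calcium pump of heart, slow muscle and most other cells, read 11.34, 11.19 and 11.29 in the condyle, 9.996, 9.97 and 9.99 in the fossa, and 9.35, 8.69 and 9.35 in whole body. The 3 groups did not overlap and the joint arrays were tightly grouped. Atp2a2 rose by 2.14 ± 0.17 in the condyle (adjusted p = 0.00077) and by 0.86 ± 0.17 in the fossa (adjusted p = 0.015). Actn1 and Actn4, the nonmuscle alpha-actinins, rose by 1.33 ± 0.27 and 1.91 ± 0.41 in the condyle (adjusted p 0.020 and 0.025).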

How the data were processed

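The authors deposited 1 intensity per probe set and array on a linear scale, from 3.25 to 67159, for 9 Affymetrix mouse expression arrays. Per the submitters' processing notes limma was used, and the background correction and normalization behind these intensities are not given in the sources used here. Precision is limited by the number of arrays.

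The deposited intensities were taken to log2 without further scaling (a floor of 1 changed no value). Of 45101 probe sets, 34945 carry 1 gene symbol, 932 several and 9160 none in the platform annotation, and 64 are array controls. Each of 18193 genes was represented by its brightest probe set by mean. A model of 3 groups over all 9 arrays was fitted with limma 3.58.1 (R 4.3.3, lmFit and eBayes), and p-values were adjusted over all genes by the Benjamini-Hochberg method, with 0.05 as threshold. The procedure was tested on simulated data. A fold is written as "at least" where the dimmer group had fewer than 3 arrays above background, and none is given where the brighter group was at background. The samples are described as biological replicates, and pooling of embryos is not stated.

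The 44 members, their classes and all marker lists were chosen with earlier results of these data known, so no list is independent evidence of its direction. By rule, full values were printed for members called in any comparison or among the 3 widest ranges of a joint tissue, and at most 4 genes of each other list by largest difference. Values of further members (Myh3, Myh8, Mybpc1, Acta1, Actc1, Casq1, Myog, Myf5 and those given by differences) were chosen after they were seen. Alternatives covered scaling, a floor, filters, probe set choice, the moderation, the groups fitted, the classes, the replicate block and leaving out each array. Replicate numbers did not pair the arrays.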

Additional observations from a re-analysis of the deposited data

Results flagged for a closer look

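The differences of 3 members from whole body were unequal in the condyle and the fossa by the direct test of condyle against fossa (limma, adjusted p under 0.05). Myh6 had a value of -1.40 (condyle minus fossa, log2), with all condyle arrays at background and all fossa arrays just above it. Tcap had a value of 0.23 and Atp2a1 of 0.75, both near the background limits, where 2 condyle arrays and 0 fossa arrays were above them.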

How the results depend on the processing

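In the condyle against whole body, 10 members were called, 17 without the genes at background on all arrays, and 7 to 12 when 1 array was left out. In the fossa against whole body, 14 were called, 8 with a common floor, 8 with the replicate block, and 9 to 16 when 1 array was left out, with 9 without fossa array 3, whole body array 1 or whole body array 2. Between condyle and fossa, 3 were called, 0 with a common floor (where Myh6 had an adjusted p of 0.0589) and 2 to 4 when 1 array was left out. With the replicate block the counts were 7, 8 and 2, although same-numbered arrays did not deviate together (correlations of condyle and fossa arrays of -0.33, -0.44 and 0.15 over genes). The block ended the calls of Myl4, Mylpf and Tnnc1 in the condyle, of those and Myl7, Casq2 and Atp2a1 in the fossa, and of Tcap between the tissues. With quantile normalization the counts were 12, 10 and 3. Myh6, Myh7, Myl2, Myl3, Tnnt2, Myoz2 and Pln were called against whole body in both joint tissues under each of 18 alternatives. No called member changed sign under them, but both Tcap differences were 0 with a common floor. Signal near background limits Tcap, Atp2a1, Myl7 and the condyle value of Myh6.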
